A study of Danio rerio with 24 samples.

Results

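Solitary CpGs were defined as CpG dinucleotides with no other CpG within 250 bp on either side, among all CpGs covered in any of the 4 methylomes of the study. Of 23256360 CpGs covered in at least 1 library, 110307 (0.474%) were solitary. Of these, 17484 had at least 10 reads in all 4 libraries and were kept, out of 13555596 CpGs that met the same read minimum (0.129%). They were set against 510563 CpGs with 1 to 3 neighbours and 9223114 CpGs with 10 or more neighbours in the same window, with 3804435 CpGs of 4 to 9 neighbours between them. The definition used positions and read numbers and no methylation level.

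In vertebrates most cytosines of CpG dinucleotides carry a methyl group on both strands. After DNA replication the maintenance methyltransferase Dnmt1, guided by Uhrf1, copies the mark onto the new strand, and Tet enzymes or replication without maintenance remove it. Dense clusters of CpGs at promoters, the CpG islands, are usually free of methylation, whereas scattered CpGs are usually methylated, and the spontaneous deamination of methylated cytosine to thymine has thinned out CpGs in most of the genome.

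Whole-genome bisulfite sequencing (WGBS) was used to read methylation in zebrafish neural crest cells (NCCs), the migratory embryonic population that gives rise to pigment cells, and in melanophores and iridophores, the black and the reflective pigment cells. Early NCCs were taken at 15 somites and late NCCs at 24 hours post fertilization (hpf), both sorted as GFP-positive cells from Tg(crestinA:EGFP) embryos, in which an element of the neural crest gene crestin drives GFP. Differentiated melanophores and iridophores came from larvae of mlphaj120, a melanophilin mutant, at 4 to 5 days post fertilization (dpf). They were isolated by density centrifugation and sorting. Each methylome combines 2 biological replicates, so no value has a spread between replicates, each test compares the reads of 2 libraries, and intervals cover counting error only. Cell type, strain, age and isolation change together between NCCs and pigment cells and cannot be told apart, a difference of the DNA sequence between strains included. The labelled cell types were not checked against marker genes here, because the expression libraries were not analysed.

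The methylation level of a CpG is the percentage of its reads that are methylated. Solitary CpGs had a median of 20 reads in early and 32 in late NCCs, and 39 in melanophores and 28 in iridophores. CpGs with 10 or more neighbours had 31, 41, 48 and 34 reads in the same order of libraries. Only 15.9% of the solitary CpGs of the union met the read minimum, compared to 58.3% of all covered CpGs. The 92823 solitary CpGs that were left out most often fell short in early NCCs, where 82.9% of all solitary CpGs had under 10 reads, and least often in melanophores, where 63.8% did.

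The kept CpGs lay on all 25 chromosomes, with a median spacing of 46395 bp between consecutive ones. Their nearest CpG was 251 to 1951 bp away, with a median of 294 bp, and 95% had it within 473 bp. Distances run to CpGs covered in at least 1 library, and the reference sequence was not searched. Hence most solitary CpGs lay just outside the limit, and the wider surroundings were only moderately poor in CpGs. The median number of other CpGs within 2500 bp on either side was 62 around solitary CpGs, 67 around CpGs with 1 to 3 neighbours and 104 around CpGs with 10 or more. CpGs just inside and just outside the limit had similar levels. Solitary CpGs with the nearest CpG 251 to 275 bp away averaged 82.9% in early and 81.2% in late NCCs, and 78.2% in melanophores and 76.7% in iridophores. CpGs whose only neighbour was 226 to 250 bp away averaged 83.8%, 81.9%, 79.1% and 77.6% in the same order. Solitary CpGs that missed the read minimum narrowly, with 8 or 9 reads in their shallowest library, averaged 83.2%, 81.0%, 79.0% and 76.6%.

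Solitary CpGs were mostly methylated in all 4 cell types, but less so than CpGs with a few neighbours. Their mean level was 82.3% in early and 80.6% in late NCCs, and 77.8% in melanophores and 76.3% in iridophores (95% intervals for counting error 82.2% to 82.4%, 80.5% to 80.6%, 77.7% to 77.9% and 76.2% to 76.4%). The CpGs themselves spread widely around these means, with SDs of 26.5 to 27.3 points over CpGs. CpGs with 1 to 3 neighbours averaged 86.5%, 84.9%, 81.2% and 80.02% in the same order. Solitary CpGs minus CpGs with 1 to 3 neighbours was -4.22 points in early and -4.35 in late NCCs, and -3.38 in melanophores and -3.75 in iridophores, and it was negative on 25 of 25 chromosomes in every library. Over the 4 libraries the mean difference was -3.92 points (exact sign-flip permutation test, two-sided, p = 0.13, the smallest p that 4 libraries allow). When all reads of a class were pooled instead of averaging over CpGs, this difference was -11.9 points, since deeply covered CpGs then weigh more, and with a window of 500 bp it was -11.0 points.

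CpGs with 10 or more neighbours, which include unmethylated CpG-rich stretches, averaged 84.1% in early and 83.3% in late NCCs, and 80.7% in melanophores and 80.6% in iridophores. Solitary CpGs minus these was -1.83, -2.79, -2.88 and -4.28 points in the same order, with a mean difference of -2.95 points (exact sign-flip permutation test, two-sided, p = 0.13). This difference depended on the window. With 100 bp on either side the same class comparison gave a mean difference of 3.87 points, with solitary CpGs higher, and with 500 bp it gave -13.7 points. Pooling the reads gave -13.1 points.

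Levels did not run in one direction with the number of neighbours. A single neighbour within 250 bp went with a mean level of 84.9% in early and 83.2% in late NCCs, and 80.02% in melanophores and 78.6% in iridophores, already above the solitary CpGs in each library. The highest means were reached at 8 neighbours in early (88.9%) and 9 in late NCCs (87.7%), and at 10 in melanophores (83.5%) and 12 in iridophores (83.2%). Solitary CpGs minus these maxima was -6.68 points in early and -7.18 in late NCCs, and -5.67 in melanophores and -6.92 in iridophores. At 30 neighbours the means were down to 75.1% in early NCCs and 73.9% in iridophores. The gap between both pigment cells also changed along this axis. Iridophores minus melanophores was -1.54 points at solitary CpGs, -1.42 points at a single neighbour, -0.32 points at 10 neighbours and -0.07 points at 15 neighbours.

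**Figure D1:**
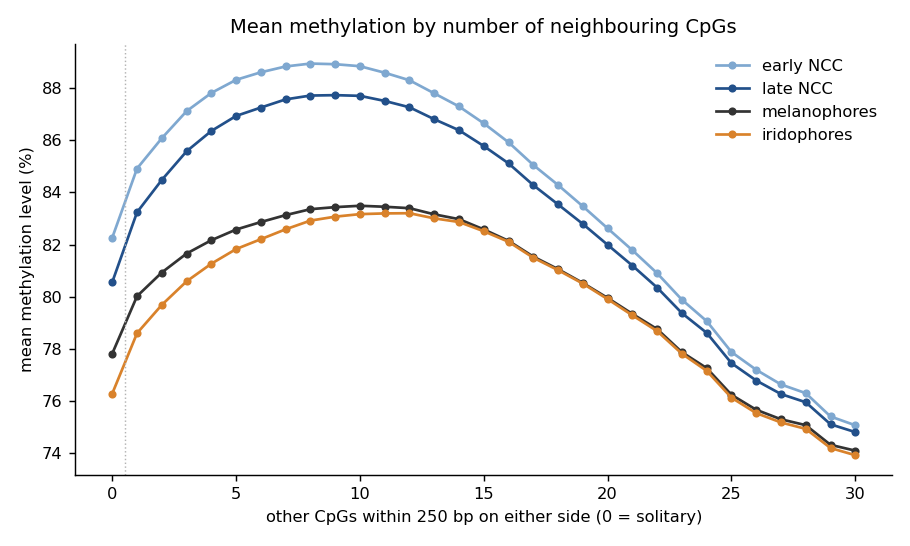
Mean methylation level (%, y axis, which does not start at 0) of tested CpGs against the number of other CpGs within 250 bp on either side (x axis, 0 to 30), with a line for each of the 4 libraries and solitary CpGs left of the dotted line. Solitary CpGs sit below CpGs with 1 neighbour in all 4 libraries, and iridophores minus melanophores is -1.54 points at 0 neighbours, where the iridophore line runs below the melanophore line, and -0.07 points at 15 neighbours, where the lines meet.

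The lower mean of solitary CpGs came with fewer highly methylated CpGs in each library. Over 80% methylation was found at 77.5% of solitary CpGs in early and 75.4% in late NCCs, and 70.4% in melanophores and 65.2% in iridophores. Among CpGs with 1 to 3 neighbours these shares were 84.4%, 83.1%, 76.5% and 72.9% in the same order. At the low end, 7.57% of solitary CpGs in early NCCs and 8.51% in iridophores were under 20%, compared to 5.59% and 7.04% of CpGs with 1 to 3 neighbours in those libraries. CpGs with 10 or more neighbours held more at that end, with 9.31% in early NCCs and 10.03% in iridophores. The median level of solitary CpGs was 92.9% in early and 90.9% in late NCCs, and 88.9% in melanophores and 86.7% in iridophores. That of CpGs with 10 or more neighbours was 95.6%, 94.8%, 93.2% and 92.7% in the same order, so dense CpGs were both more often unmethylated and more completely methylated otherwise.

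**Figure D2:**
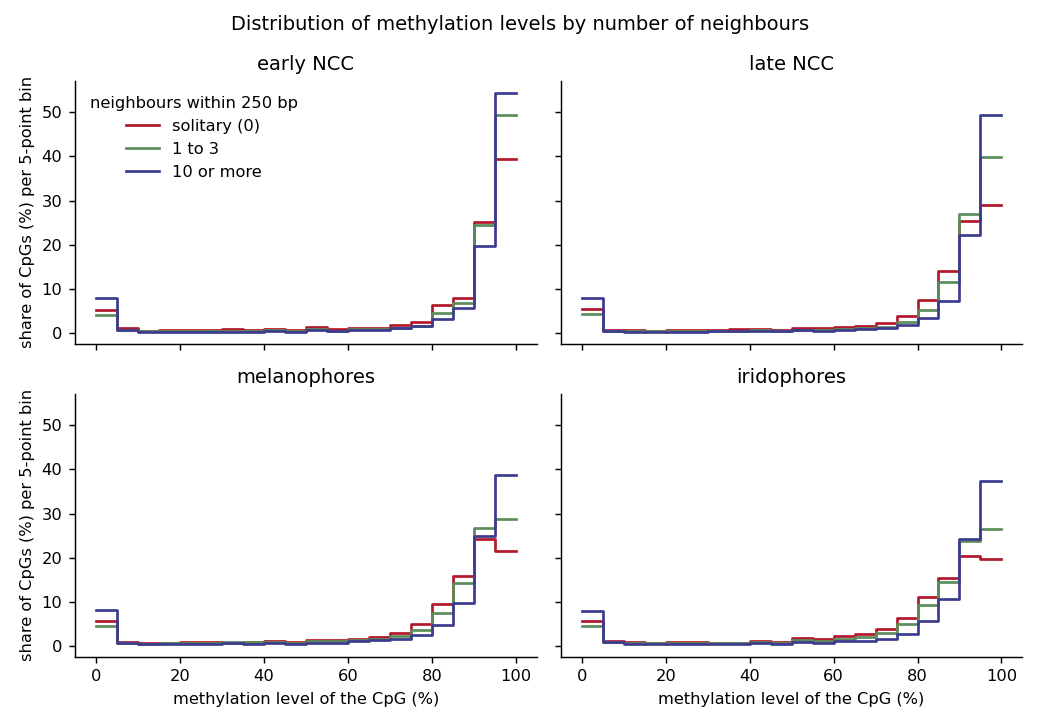
Distribution of methylation levels (x axis, %) as the share of CpGs in bins of 5 points (y axis, %), with a panel for each library and a line for each class of CpGs by neighbours within 250 bp. Solitary CpGs have the lowest share in the highest bin of all 4 panels and lie between the other classes in the lowest bin.

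Among solitary CpGs, isolation beyond 350 bp went with lower mean levels, most of all beyond 500 bp. The 4027 with the nearest CpG 301 to 350 bp away averaged 83.6% in early and 81.9% in late NCCs, and 79.4% in melanophores and 77.8% in iridophores. The 557 at 501 to 700 bp averaged 73.9%, 72.4%, 70.1% and 69.4% in the same order. The 95 most isolated ones, at 701 to 1951 bp, averaged 58.3% in early and 57.2% in late NCCs, and 57.3% in melanophores and 55.5% in iridophores. In that last group, 23.2% were under 20% in all 4 libraries, compared to 5.68% at 251 to 275 bp. Median read depth hardly changed with isolation, at 19 to 21 reads in early NCCs and 28 to 29 in iridophores. The share of CpGs with very many reads was higher in the more isolated groups. CpGs with more than 3 times the median reads of a library, called over-covered here, made up 10.5% of the most isolated group and 1.60% at 251 to 275 bp. For this trend, over-covered CpGs were left out only after the data were seen. Without them, the 85 most isolated ones averaged 63.0% in early and 61.6% in late NCCs, and 61.9% in melanophores and 60.3% in iridophores. Also without them, CpGs at 351 to 400 bp averaged 82.1% in early NCCs and 76.9% in iridophores. Those at 251 to 275 bp then averaged 83.4% and 77.1%, so the difference was small in iridophores.

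**Figure D3:**
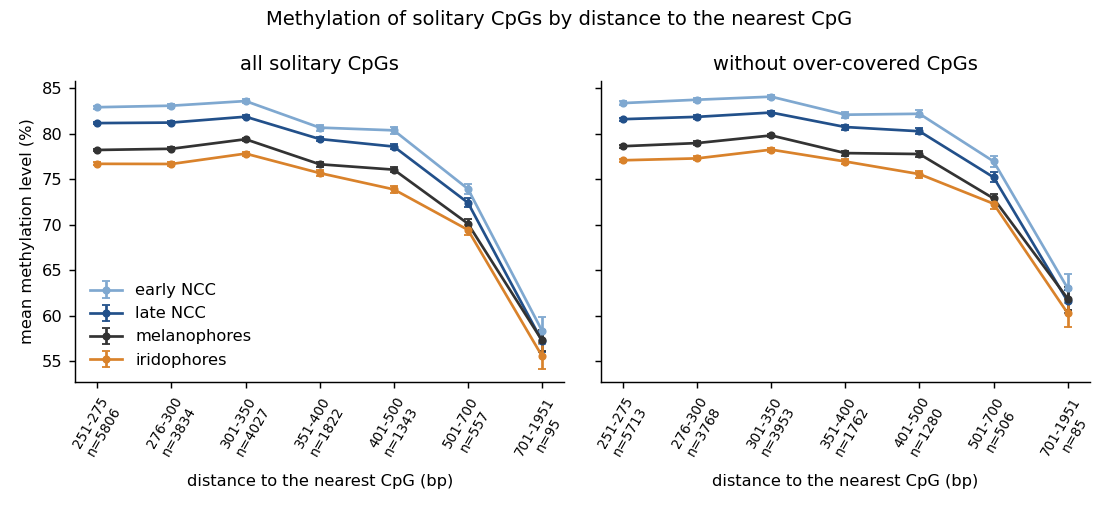
Mean methylation level (%, y axis, which does not start at 0) of solitary CpGs by the distance to the nearest CpG (x axis, bins in bp with the number of CpGs), for all 17484 solitary CpGs on the left and without over-covered CpGs on the right. Lines are the 4 libraries and bars are 95% intervals for counting error; every line is lowest in the bin of 701 to 1951 bp.

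Individual isolated CpGs were not uniform. Under the depth limit for named CpGs, the CpG farthest from another covered CpG was on chromosome 7 at position 71114157 of danRer10. Its covered neighbours were 1951 and 2678 bp away. It was methylated in 2 of 11 reads in early and 0 of 19 in late NCCs. Melanophores had 4 of 29 and iridophores 3 of 13. The next one, on chromosome 3 at position 6792606, had 16 of 28 methylated reads in early and 22 of 42 in late NCCs, and 43 of 53 in melanophores and 38 of 49 in iridophores. The last, on chromosome 11 at position 44074009, had 0 of 10 reads in early and 0 of 19 in late NCCs, and 1 of 12 in melanophores and 0 of 10 in iridophores. The last was thus near the bottom of the scale in all 4 libraries, the first had levels of 0% to 23.1%, and the middle one was intermediate to high. The nearest tested CpG of each of the 3 was methylated at 76.9% or more in every library.

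Over-covered CpGs were less methylated than the other solitary CpGs. There were 417 of them (2.39%), with a median of 169 reads in early NCCs and up to 10320 reads in melanophores. Their mean level was 47.7% in early and 48.0% in late NCCs, and 46.3% in melanophores and 44.9% in iridophores. The other 17067 solitary CpGs averaged 83.1%, 81.4%, 78.6% and 77.0% in the same order. Over-covered CpGs with 1 to 3 neighbours were also lower than the others of their class, with 71.3% against 86.7% in early NCCs and 66.3% against 80.2% in iridophores. In the class with 10 or more neighbours, over-covered CpGs were more common (4.33%), and their mean of 85.1% in early NCCs was not lower than that of the class. Whether reads from several copies of a sequence collect at the over-covered solitary CpGs was not tested. With over-covered CpGs left out, solitary CpGs remained below CpGs with 1 to 3 neighbours, by a mean difference of -3.30 points over the 4 libraries, and below CpGs with 10 or more neighbours, by -2.11 points.

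A minority of solitary CpGs was at most weakly methylated in every cell type. There were 1069 under 20% in all 4 libraries (6.11%, Clopper-Pearson 95% interval 5.76% to 6.48%), compared to 4.57% of CpGs with 1 to 3 neighbours and 8.45% of CpGs with 10 or more. No methylated read at all was seen in any library at 466 solitary CpGs (2.67%). Whether the fish used carry a CpG at the 1069 positions was not tested, since no sequence was used here. The CpGs under 20% mostly stood alone in methylated surroundings, but less often than solitary CpGs in general. For 1059 of the 1069, a tested CpG lay beyond the window within 2000 bp, and its median level was 92.9% in early and 91.7% in late NCCs, and 89.4% in melanophores and 88.0% in iridophores. Of these outside CpGs, 57.3% were over 80% in all 4 libraries and 13.5% were under 20% in all 4. For CpGs with 1 to 3 neighbours the last share was 13.6%, and for those with 10 or more neighbours it was 71.8%. Around all solitary CpGs, 63.5% of the outside CpGs were over 80% in all 4 libraries. Only 5.94% were under 20% in all 4, so a low outside CpG was more frequent beside the CpGs under 20%.

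The solitary CpGs under 20% with the most reads showed both settings. On chromosome 1 at position 38368942 there were 0 methylated reads of 56 in early and of 84 in late NCCs, and of 92 in melanophores and of 72 in iridophores, which allows levels of up to 5.36%, 3.57%, 3.26% and 4.17%. Its nearest tested CpG, 324 bp away, was methylated at 89.5% in early and 89.5% in late NCCs, and 93.5% in melanophores and 91.4% in iridophores. On chromosome 23 at position 240980 the counts were 0 of 58 reads in early and 5 of 90 in late NCCs, and 2 of 113 in melanophores and 1 of 77 in iridophores. There the nearest tested CpG, 470 bp away, was itself at 0 to 2.70% in the 4 libraries. A further one, on chromosome 17 at position 46975100, had 6 of 45 methylated reads in early and 15 of 87 in late NCCs, and 8 of 97 in melanophores and 12 of 80 in iridophores. Its nearest tested CpG, 267 bp away, was at 31.3% in early and 24.5% in late NCCs, and at 5.67% in melanophores and 6.67% in iridophores, so that 1 of these 3 CpGs lay beside a highly methylated CpG.

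Levels between 40% and 60% in all 4 libraries were rare but more frequent at solitary CpGs. They were seen at 108 of them (0.618%, Clopper-Pearson 95% interval 0.507% to 0.745%), compared to 0.249% of CpGs with 1 to 3 neighbours and 0.188% of CpGs with 10 or more. Whether the DNA sequence varies among the fish at the 108 was not tested. Of the 108, 33 were over-covered. The best covered of the rest, on chromosome 11 at position 6157941, had 23 of 43 methylated reads in early and 40 of 79 in late NCCs, and 61 of 107 in melanophores and 38 of 76 in iridophores. On chromosome 20 at position 6413157 the counts were 23 of 52 in early and 34 of 61 in late NCCs, and 45 of 87 in melanophores and 26 of 65 in iridophores. On chromosome 10 at position 40526862 they were 29 of 50, 27 of 54, 47 of 82 and 34 of 64 in the same order of libraries. At the upper end, 9748 solitary CpGs (55.8%) were over 80% in all 4 libraries, compared to 64.8% of CpGs with 1 to 3 neighbours and 71.0% of CpGs with 10 or more.

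The mean level of solitary CpGs was lower in late than in early NCCs, lower again in melanophores and lowest in iridophores. The mean of late NCCs minus early NCCs was -1.71 points (95% interval for counting error -1.84 to -1.57). Melanophores minus late NCCs was -2.74 points (-2.86 to -2.62), iridophores minus late NCCs was -4.28 points (-4.41 to -4.14), and iridophores minus melanophores was -1.54 points (-1.67 to -1.40). Each of the 4 differences was negative on 25 of 25 chromosomes. No spread between replicates is known for any of them. The medians over solitary CpGs were smaller, from -0.69 points for iridophores minus melanophores to -2.41 points for iridophores minus late NCCs.

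The difference of a pigment cell from late NCCs is called its step here. Set against CpGs with a few neighbours, the mean step was smaller at solitary CpGs with at least 10 reads. This did not hold under every setting. The mean of melanophores minus late NCCs was -2.74 points at solitary CpGs and -3.71 points at CpGs with 1 to 3 neighbours, a difference of 0.97 points (95% counting interval 0.85 to 1.09), and the solitary step was the more negative on 1 of 25 chromosomes. For iridophores minus late NCCs the means were -4.28 and -4.88 points, a difference of 0.60 points (0.47 to 0.74), and the solitary step was the more negative on 5 of 25 chromosomes. Among CpGs with 10 to 20 reads in all 4 libraries, which hold 1080 solitary ones, these differences turned to -0.33 points for melanophores and -0.43 points for iridophores, and with pooled reads that for iridophores was -0.030 points. Against CpGs with 10 or more neighbours the order differed between the pigment cells. The melanophore step was -2.65 points in that class, and the difference of -0.09 points, solitary minus dense, had a counting interval that includes 0 (-0.21 to 0.03). The iridophore step was -2.79 points there, a difference of -1.49 points, and the solitary step was the more negative on 24 of 25 chromosomes. With a window of 500 bp that difference turned to 0.54 points. The direct difference between iridophores and melanophores was -1.54 points at solitary CpGs and -0.13 points at CpGs with 10 or more neighbours, and it was the more negative at solitary CpGs on 25 of 25 chromosomes. At CpGs with 1 to 3 neighbours it was -1.17 points, and the solitary value was the more negative on 18 of 25 chromosomes.

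Single CpGs were tested with two-sided Fisher's exact tests of methylated and unmethylated reads, adjusted by the Benjamini-Hochberg method over all 13555596 tested CpGs. A CpG was called where the adjusted p was under 0.05 and the levels differed by at least 30 points. In melanophores against late NCCs, 462 solitary CpGs were called lower (2.64%, 95% interval 2.41% to 2.89%), where 3.42% of all tested CpGs were, and 94 were called higher (0.538%), where 0.435% of all tested CpGs were. In iridophores against late NCCs, 442 were called lower (2.53%, 95% interval 2.30% to 2.77%), where 3.09% of all tested CpGs were, and 74 were called higher (0.423%), where 0.384% were. At this read minimum and window the shares called lower were below the background in both pigment cells. Those called higher were somewhat above it, and no higher share is claimed.

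Iridophores against melanophores gave 142 solitary CpGs called lower (0.812%, 95% interval 0.685% to 0.957%), with a background of 0.802% of all tested CpGs. A further 92 were called higher in iridophores (0.526%, 95% interval 0.424% to 0.645%), with a background of 0.821%. Between late and early NCCs few calls were made at all. Only 9 solitary CpGs were called lower in late NCCs (0.0515%, 95% interval 0.0235% to 0.0977%) and 16 higher (0.0915%, 0.0523% to 0.149%), with backgrounds of 0.178% and 0.0663%.

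Solitary CpGs had fewer reads, and a difference is harder to call with fewer reads. At CpGs with 20 to 40 reads in both compared libraries, a restriction added after the data were seen, 2.49% of solitary CpGs were called lower in melanophores against late NCCs (95% interval 2.11% to 2.92%), where 2.69% of all CpGs in that range were. In iridophores against late NCCs 2.61% were called lower (2.24% to 3.02%), where 2.84% of all were. Both intervals hold the share of all CpGs in the range. Intervals of shares count each CpG as an independent draw and cover no spread between replicates. They are therefore no test against the background, and no lower share is claimed at 20 to 40 reads. With 20 or more reads in all 4 libraries and no upper limit, 2.99% of solitary CpGs were called lower in melanophores. Of all CpGs then tested, 3.95% were. In iridophores these 2 shares were 2.96% and 3.57%. At 20 to 40 reads the solitary shares were lower than those of CpGs with 1 to 3 neighbours. Of the latter, 3.44% were called lower in melanophores and 3.77% in iridophores. The solitary shares were higher than those of CpGs with 10 or more neighbours, which were 2.03% and 2.16%. With a window of 100 bp and without this restriction of reads, the solitary shares were 3.58% in melanophores and 3.57% in iridophores. These were above the background of 3.42% and 3.09% of all tested CpGs. The share called lower in iridophores against melanophores was 0.901% at solitary CpGs (0.661% to 1.20%), where 0.640% of all CpGs in the range were. CpGs with 1 to 3 neighbours were at 1.01% and those with 10 or more at 0.444%. No higher share of solitary CpGs is claimed, since the interval is no test and the order depended on the setting. Without the restriction of reads, 0.812% of solitary CpGs and 0.802% of all tested CpGs were called lower. With 5 or more reads in all 4 libraries these shares were 0.613% and 0.676%, and with a window of 100 bp they were 1.07% and 0.802%. At 20 to 40 reads, 0.470% of solitary CpGs were called higher in iridophores against melanophores (0.302% to 0.699%), where 0.480% of all CpGs in the range were. That interval holds the share of all CpGs in the range, and no lower share is claimed there either. In the same range, 0.521% of solitary CpGs were called higher in melanophores against late NCCs (0.355% to 0.739%), where 0.394% of all were. In iridophores against late NCCs 0.513% were (0.355% to 0.716%), where 0.358% of all were. Both intervals hold the share of all CpGs. For late against early NCCs, 4 of 3495 solitary CpGs in the range were called lower (0.114%, 0.0312% to 0.293%), too few to place them against the 0.0882% of all CpGs.

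**Figure D4:**
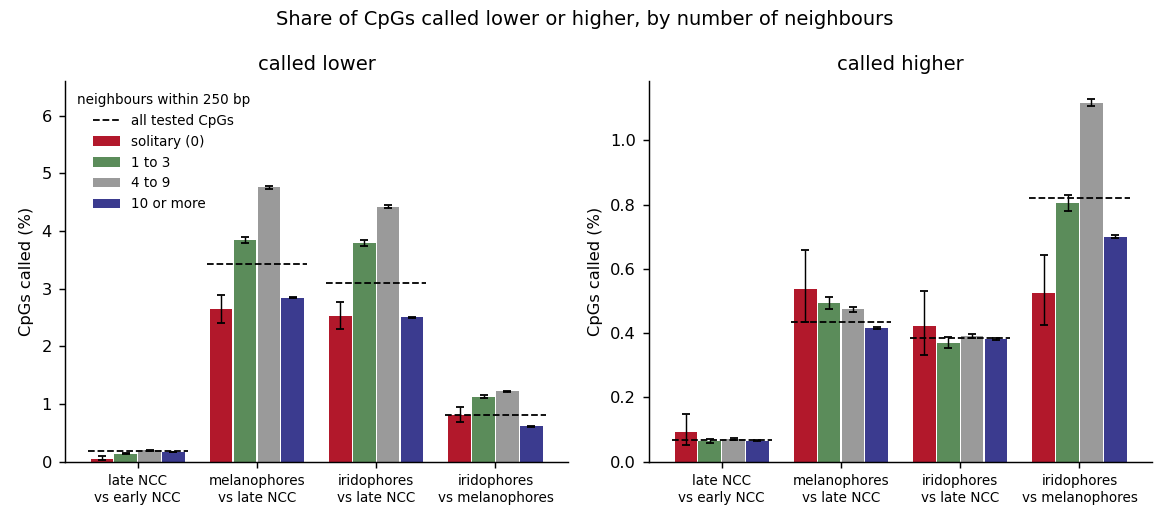
Share of CpGs (y axis, %) called lower (left) or higher (right) in each of the 4 comparisons on the x axis, by number of neighbours within 250 bp; bars start at 0, error bars are Clopper-Pearson 95% intervals and dashed lines give the share of all tested CpGs. Solitary CpGs lie under the dashed line for lower calls in melanophores (2.64%) and iridophores (2.53%) against late NCCs.

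At solitary CpGs called lower in melanophores against late NCCs, both levels entered the call. A high level in late NCCs and a low one in melanophores were thus favoured by the choice. Their median difference was -49.2 points, compared to -50.1 points at called CpGs with 1 to 3 neighbours and -48.8 points with 10 or more. Over the 462, the median level was 35.5% in melanophores against 90.9% in late NCCs, and 99 were under 20% in melanophores. In the libraries that this comparison did not use, the medians were 93.3% in early NCCs and 53.2% in iridophores. Below the depth limit for named CpGs, the largest difference was on chromosome 9 at position 23535223, with 2 methylated of 39 reads in melanophores against 36 of 38 in late NCCs (adjusted Fisher's exact p = 1.73e-14). This CpG had 21 of 21 in early NCCs and 12 of 23 in iridophores. On chromosome 5 at position 36638638 there were 0 of 24 in melanophores, which allows up to 12.5%, against 25 of 28 in late NCCs (adjusted Fisher's exact p = 9.62e-10), beside 13 of 14 in early NCCs and 17 of 29 in iridophores. On chromosome 18 at position 38977821 there were 2 of 19 in melanophores against 11 of 11 in late NCCs (adjusted Fisher's exact p = 6.56e-05). There iridophores, with 2 of 18, were as low as melanophores, and early NCCs had 10 of 10.

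The 442 called lower in iridophores against late NCCs had a median of 32.9% in iridophores against 92.3% in late NCCs, and 131 were under 20% in iridophores. Their median was 94.1% in early NCCs and 61.5% in melanophores. Both pigment cell comparisons share the late NCC library, and here too the levels compared entered the call. The CpG on chromosome 11 at position 26260742 had 0 of 21 methylated reads in iridophores, which allows up to 14.3%, against 37 of 37 in late NCCs (adjusted Fisher's exact p = 1.14e-13), with 9 of 10 in early NCCs and 18 of 27 in melanophores. On chromosome 6 at position 53063150 there were 0 of 13 in iridophores, which allows up to 23.1%, against 10 of 10 in late NCCs (adjusted Fisher's exact p = 5.17e-05), with 11 of 11 in early NCCs and 14 of 18 in melanophores. Both thus had no methylated read in iridophores and were above 60% in melanophores. The CpG on chromosome 17 at position 32609319 was low in both pigment cells, with 0 of 21 in iridophores and 3 of 28 in melanophores, against 28 of 29 in late NCCs (adjusted Fisher's exact p = 6.82e-11 for iridophores).

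Gains of methylation were fewer, and levels in late NCCs were low to intermediate there. The quartiles in late NCCs were 9.98% and 49.7% for gains in melanophores and 9.36% and 47.9% for gains in iridophores. The late NCC level entered these calls, so low values there were favoured by the choice. The 94 solitary CpGs called higher in melanophores had a median of 82.0% in melanophores against 33.9% in late NCCs, with 47.2% in early NCCs and 78.5% in iridophores. The 74 called higher in iridophores had a median of 79.7% in iridophores against 30.4% in late NCCs, with 42.9% in early NCCs and 77.6% in melanophores. Position 28235409 of chromosome 7 had 39 of 41 methylated reads in melanophores against 14 of 46 in late NCCs (adjusted Fisher's exact p = 1.4e-08), with 11 of 31 in early NCCs and 27 of 32 in iridophores. On chromosome 21 at position 1468246 there were 20 of 21 in melanophores and 22 of 25 in iridophores, against 6 of 32 in late NCCs (adjusted Fisher's exact p = 1.41e-06 for melanophores and 1.11e-05 for iridophores). Early NCCs had 5 of 10 there. On chromosome 21 at position 34404002 only late NCCs were low, with 25 of 27 in melanophores and 18 of 18 in iridophores, against 4 of 15 in late NCCs (adjusted Fisher's exact p = 0.000683 for melanophores and 0.00034 for iridophores), and early NCCs were at 11 of 12. The CpG on chromosome 17 at position 46222436 had 17 of 20 in iridophores against 1 of 21 in late NCCs (adjusted Fisher's exact p = 8.89e-06), with 8 of 26 in early NCCs and 16 of 28 in melanophores.

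Where the pigment cells were compared directly, the cell type with the higher level was close to the NCCs. The 142 solitary CpGs called lower in iridophores had a median of 31.3% in iridophores against 87.0% in melanophores, with 95.6% in early NCCs and 93.6% in late NCCs. The 92 called higher in iridophores had a median of 85.3% in iridophores against 36.7% in melanophores, with 96.2% in early NCCs and 93.6% in late NCCs. On chromosome 2 at position 25569920 there were 0 methylated of 13 reads in iridophores against 22 of 24 in melanophores (adjusted Fisher's exact p = 7.32e-06), beside 15 of 16 in early NCCs and 20 of 23 in late NCCs. On chromosome 3 at position 20211618 the counts were 1 of 32 in iridophores against 43 of 51 in melanophores (adjusted Fisher's exact p = 5.04e-11), and on chromosome 6 at position 27586812 they were 1 of 22 in iridophores against 32 of 36 in melanophores (adjusted Fisher's exact p = 4.3e-08). In the other direction, chromosome 13 at position 34004913 had 27 of 29 in iridophores against 6 of 33 in melanophores (adjusted Fisher's exact p = 4.54e-07), with 14 of 14 in early NCCs and 19 of 21 in late NCCs. Chromosome 18 at position 16198911 had 17 of 18 in iridophores against 11 of 43 in melanophores (adjusted Fisher's exact p = 9.12e-05). The widest gap in that direction, on chromosome 1 at position 17897020, rested on 11 of 11 reads in iridophores against 4 of 19 in melanophores (adjusted Fisher's exact p = 0.00433).

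At the few solitary CpGs that differed between NCC stages, the medians of the pigment cells lay nearer to late than to early NCCs. The 9 called lower in late NCCs had a median of 20.5% in late NCCs against 76.9% in early NCCs, with 30.6% in melanophores and 17.6% in iridophores. The 16 called higher had a median of 72.2% in late NCCs against 13.5% in early NCCs, with 62.1% in melanophores and 60.9% in iridophores. On chromosome 16, positions 13403598 and 13426104 were both lower in late NCCs. The first had 8 of 39 methylated reads in late NCCs against 22 of 26 in early NCCs (adjusted Fisher's exact p = 0.000716), and the second had 4 of 35 against 21 of 29 (adjusted Fisher's exact p = 0.000832). Melanophores had 11 of 42 and 7 of 49 at these CpGs, and iridophores had 3 of 24 and 5 of 29, so both CpGs were also low in the pigment cells. On chromosome 18 at position 38408754 there were 3 of 27 in late NCCs against 20 of 26 in early NCCs (adjusted Fisher's exact p = 0.00144).

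Among the gains, the CpG on chromosome 18 at position 38822668 had 35 of 43 methylated reads in late NCCs against 6 of 36 in early NCCs (adjusted Fisher's exact p = 2.49e-05). It was intermediate in the pigment cells, with 30 of 54 in melanophores and 24 of 46 in iridophores. On chromosome 15 at position 41997654 there were 28 of 36 in late NCCs against 2 of 18 in early NCCs (adjusted Fisher's exact p = 0.00358). Also on chromosome 15, position 40067689 had 17 of 28 in late NCCs against 0 of 18 in early NCCs (adjusted Fisher's exact p = 0.0105), which allows up to 16.7% in early NCCs. Its nearest tested CpG, 379 bp away, had 40.5% in late NCCs against 0% in early NCCs.

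Called solitary CpGs rarely shared their change with the next tested CpG beyond the window. Of the 462 called lower in melanophores, 460 had a tested CpG more than 250 bp and at most 2000 bp away. Its median change was -4.07 points, and it was lower by at least 30 points in 69 cases (15.0%). The corresponding share around all solitary CpGs was 3.99%, and around CpGs with 1 to 3 neighbours called lower in melanophores it was 18.5%. For iridophores against late NCCs, 65 of 440 outside CpGs (14.8%) were lower by at least 30 points, compared to 4.63% around all solitary CpGs and 17.7% around called CpGs with 1 to 3 neighbours. For iridophores against melanophores, 13 of 142 (9.15%) shared a loss in iridophores, compared to 1.71% around all solitary CpGs. Next to the CpGs called higher in melanophores, 3 of 94 outside CpGs (3.19%) were higher by at least 30 points. Around all solitary CpGs this share was 0.896%. Another 7 of the 94 (7.45%) were lower by as much, compared to 3.99% around all solitary CpGs. For gains in iridophores against late NCCs, 4 of 74 outside CpGs (5.41%) were higher, compared to 0.822% around all solitary CpGs. Of the same 74, 7 (9.46%) were lower by at least 30 points, compared to 4.63% around all solitary CpGs. For gains in iridophores against melanophores, 8 of 92 (8.70%) were higher, compared to 1.22% around all solitary CpGs. Of these 92, 4 (4.35%) were lower by at least 30 points, compared to 1.71% around all solitary CpGs. Around called CpGs with 1 to 3 neighbours, 11.6% shared a loss in iridophores against melanophores. Gains were shared there by 4.76% in melanophores and 4.34% in iridophores against late NCCs, and by 11.6% in iridophores against melanophores.

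**Figure D5:**
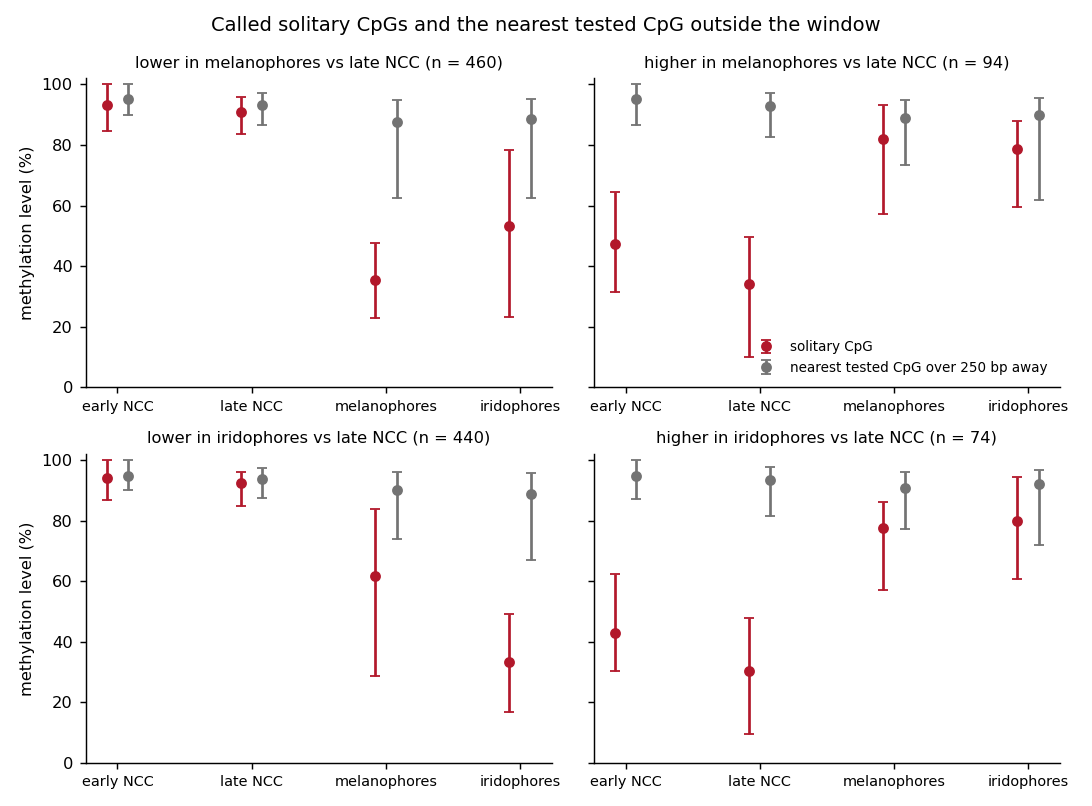
Methylation level (%, y axis) in the 4 libraries (x axis) of solitary CpGs called lower (left) or higher (right) in melanophores (top) or iridophores (bottom) against late NCCs, in red, and of the nearest tested CpG more than 250 bp away, in gray, for CpGs that have one. Points are medians and bars run between the quartiles; beside the losses, the medians of the outside CpGs stay far above those of the solitary CpGs, which are 35.5% in melanophores (top left) and 32.9% in iridophores (bottom left) over all called CpGs.

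The pattern of at least 80% in both NCC libraries and under 20% in both pigment cells was held by 14 solitary CpGs (0.0801%) on 11 chromosomes, compared to 0.149% of CpGs with 1 to 3 neighbours and 0.114% of those with 10 or more. The reverse pattern was held by 0 of 17484, which allows a share of up to 0.0172%. It was also very rare elsewhere, at 1 of 510563 CpGs with 1 to 3 neighbours and 32 of 9223114 with 10 or more. Its absence thus does not set solitary CpGs apart. The nearest tested CpGs outside the window of the 14 had median levels of 94.9% in early and 94.0% in late NCCs, and 80.4% in melanophores and 75.3% in iridophores. Of these outside CpGs, 2 were under 50% in both pigment cells and 5 were over 80% in both.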

How the data were processed

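WGBS data of 8 samples, 2 biological replicates for each of 4 cell types, were analysed; the other libraries of the series were not used here. The authors used cutadapt for trimming and Bismark for alignment to danRer10, then removed duplicates and combined replicates. Versions are not given in the sources used here. For each CpG the deposited values are the methylation level, a fraction of reads from 0 to 1, and the raw read count, without normalization. The level times the count lay within 0.0044 of a whole number of methylated reads, which was then used. Mean depth was 24.0 reads per listed CpG in early and 30.3 in late NCCs, and 35.2 in melanophores and 25.2 in iridophores. At the median of 20 to 39 reads a single level is imprecise, and duplicates removed by position do not make reads independent molecules. Positions are the start column of the files, whose counting from 0 or 1 was not settled. Gene annotation and sequence of this build were not used here.

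Neighbours were counted over the union of CpGs of the 4 files. Class means are unweighted over CpGs. Fisher's exact tests, with Benjamini-Hochberg adjustment over all tested CpGs, and Clopper-Pearson and Wilson 95% intervals were computed with Python 3.11.15, numpy 2.4.6, scipy 1.17.1 and numba 0.67.0, after a check on simulated counts. The limit for 0 counts is 3 counts of the total. CpGs of one library are not replicates, so no p is given over CpGs. Named CpGs had at most 3 times the median reads of solitary CpGs in each library. They were the 3 called with the largest difference per comparison and direction, the 3 most isolated, and the 3 with the most reads among those under 20% and among those at 40% to 60% in all 4 libraries. Alternatives covered read minimum, window, weighting, depth, call rule, over-covered CpGs, chromosome 4 and the CpGs counted as neighbours. The members, classes and lists were chosen with earlier results of these data known.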

Additional observations from a re-analysis of the deposited data

Results flagged for a closer look

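Of the solitary CpGs named for a change from late NCCs, 4 also differed between the pigment cells, by a direct Fisher's exact test of iridophores against melanophores with adjustment over all tested CpGs. CpGs named for that direct difference itself are not repeated here. Each of the 4 was picked for a large difference of its melanophore or iridophore reads from late NCCs. The direct test uses the same reads again and is not independent of that choice. The CpG on chromosome 9 at position 23535223 was 47.0 points higher in iridophores (52.2%) than in melanophores (5.13%), with adjusted Fisher's exact p = 0.00328. The CpG on chromosome 5 at position 36638638 was 58.6 points higher in iridophores (58.6%) than in melanophores (0%), with adjusted Fisher's exact p = 0.000309. The difference of iridophores minus melanophores was -66.7 points on chromosome 11 at position 26260742, with 0% in iridophores and 66.7% in melanophores (adjusted Fisher's exact p = 0.000107). On chromosome 6 at position 53063150 it was -77.8 points, with 0% in iridophores and 77.8% in melanophores (adjusted Fisher's exact p = 0.00191). Each test compares the reads of 2 libraries, of 13 to 39 reads at these CpGs.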

How the results depend on the processing

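Solitary CpGs stayed below CpGs with 1 to 3 neighbours, on the mean over the 4 libraries, under every alternative run. Their mean difference from CpGs with 10 or more neighbours turned to 3.87 points with a window of 100 bp, with 6.26 points in early and 4.87 in late NCCs, and 2.85 in melanophores and 1.50 in iridophores. With that window 0.123% of solitary CpGs were called lower in late than in early NCCs (0.178% of all tested CpGs). A window of 500 bp turned the iridophore step of solitary CpGs minus that of CpGs with 10 or more neighbours to 0.54 points. It left 1 to 3 called CpGs in each of the following. In late NCCs against early NCCs, 0.153% were lower and 0.307% higher (0.178% and 0.0663% of all tested CpGs). In iridophores against late NCCs, 0.460% were lower (3.09% of all). In iridophores against melanophores, 0.307% were lower and 0.307% higher (0.802% and 0.821% of all). A minimum of 5 reads gave 0.0295% lower and 0.0525% higher in late NCCs (0.135% and 0.0491% of all CpGs then tested), 0.272% higher in iridophores against late NCCs (0.321%) and 0.325% higher in iridophores against melanophores (0.665%). A minimum of 20 reads gave 0.123% lower and 0.160% higher in late NCCs (0.278% and 0.103% of all). Only 1080 solitary CpGs had 10 to 20 reads in all 4 libraries. At these, 0% were called lower and 0% higher in late NCCs by Fisher's exact test, as of all CpGs then tested, where 17 and 5 had an unadjusted p under 0.05 and a difference of 30 points. In melanophores against late NCCs 0.648% were called lower and 0% higher (29 and 5 unadjusted; 0.372% and 0.0339% of all). In iridophores against late NCCs 0.741% were lower and 0.0926% higher (0.504% and 0.0339% of all), and against melanophores 0.0926% lower and 0% higher (16 and 7 unadjusted; 0.0512% and 0.0116% of all). There the steps of solitary CpGs minus those of CpGs with 1 to 3 neighbours were -0.33 points for melanophores and -0.43 points for iridophores, and with pooled reads the iridophore value was -0.030 points. Without a minimum difference the calls were 0.132% lower and 0.160% higher in late NCCs (0.238% and 0.0789% of all tested CpGs). An adjusted p under 0.01 gave 0.0229% lower and 0.0515% higher in late NCCs (0.112% and 0.0346% of all tested CpGs), 0.246% higher in iridophores against late NCCs (0.260%) and 0.349% higher in iridophores against melanophores (0.631%). Matching at 20 to 40 reads, chosen after seeing the data, gave 0.114% lower in late NCCs (0.0882% of all). Of the calls at named CpGs, 2 were lost under an alternative, the one on chromosome 1 at position 17897020 at 10 to 20 reads and the one on chromosome 15 at position 40067689 at an adjusted p under 0.01. The causes of these shifts were not tested beyond the depth and window that define them. No paired analysis was possible because each file combines both replicates, and for the same reason no replicate could be left out. Neighbours were not counted in the reference sequence, which was planned only for a genome of this build.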

Other observations

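Near chromosome ends solitary CpGs made up fewer of the tested CpGs and were less methylated. The outer 1 Mb of the chromosomes held 494 of them, 0.753 per 1000 tested CpGs, compared to 1.32 per 1000 elsewhere. Their mean level in the outer 1 Mb was 76.8% in early and 75.3% in late NCCs, and 73.3% in melanophores and 72.2% in iridophores, compared to 82.4%, 80.7%, 77.9% and 76.4% elsewhere. CpGs with 1 to 3 neighbours were also lower in the outer 1 Mb, with 82.5% compared to 86.6% elsewhere in early NCCs and 77.4% compared to 80.1% elsewhere in iridophores. Relative to tested CpGs, chromosome 4 held the most solitary CpGs (867, 1.51 per 1000) and chromosome 25 the fewest (0.959 per 1000). Per Mb of chromosome, chromosome 6 was highest with 14.5, chromosome 4 had 11.3 and chromosome 25 was lowest with 10.4.

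CpG-poor surroundings beyond the window went with a wider gap to other CpGs. Among CpGs with 0 to 39 other CpGs within 2500 bp on either side, 2058 solitary ones averaged 75.3% in early NCCs and 69.4% in iridophores, compared to 83.3% and 76.3% for CpGs with 1 to 3 neighbours. With 60 to 79 CpGs in that span, solitary CpGs averaged 83.7% in early NCCs and 77.6% in iridophores, compared to 86.8% and 80.4%. Across the 17484 solitary CpGs, Pearson's r of the levels was 0.929 between late and early NCCs, 0.911 between iridophores and melanophores, 0.884 between melanophores and late NCCs and 0.866 between iridophores and late NCCs. These values describe CpGs that share their libraries, depth and mapping, and late NCCs enter 3 of them.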
